A study of Mus musculus with 28 samples.

Results

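The RNAs described here were the 200 most abundant circular RNA (circRNA) entries in blood plasma of mice of 5 ages. They were taken from 16432 circRNA entries in a table of 80668 RNAs as those with the highest mean abundance over all 28 libraries. Abundance was measured as the deposited normalised read count, named RPM there, for which the estimated counts of a library are divided by a common number other than its total count. The choice rested on level, so the levels below are a description. The last members inside the limit were mmu_circ_0011385 (172.5 RPM), mmu_circ_0014307 (172.3 RPM) and mmu_circ_0011680 of 1700060J05Rik (172.2 RPM), and the first entries outside it were mmu_circ_0000321 of Krt14 (171.8 RPM), mmu_circ_0012396 of Magi2 (170.5 RPM) and mmu_circ_0005978 of Cntn1 (169.5 RPM).

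The animals were 14 female mice of the inbred strain C57BL/6N, aged 2 months (3 mice), 6 months (4 mice), 8 months (3 mice), 12 months (2 mice) and 18 months (2 mice). Platelet-free plasma of each mouse was ultracentrifuged, which gave a pellet enriched in extracellular vesicles (here EVs) and the EV-depleted fluid with free circulating RNA (here plasma). Both fractions of every mouse were sequenced as small RNA libraries, by the protocol without pooling. For 2-month replicates 2 and 3 the plasma labels name both mice on both libraries, so for these pairs which mouse each plasma library came from, and that neither was mixed, is not shown. The pellet is an enrichment and can also hold other particles that sediment with vesicles. Total counts per library ran from 928651 to 52753818, and 1 library, plasma of 6-month replicate 1, lay under 2000000. Summed RPM of miRNAs of red cells, of platelets and myeloid cells, of liver and of skeletal muscle had medians of 1034, 260, 40.5 and 2.36 in plasma and 975, 210, 61.5 and 2.39 in EVs, and all 3 markers of each list were above 0 in both fractions.

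A circRNA arises when the spliceosome joins the donor site at the end of an exon to an acceptor site upstream of it, so that the exons between form a closed ring. Without free ends such rings resist exonucleases, and they have been described in many tissues and in blood. The sequence that sets a ring apart from the linear transcript of its gene is the back-splice junction. A small RNA library reads short linear fragments, and a fragment from inside an exon is the same in the ring and in the linear RNA. The deposited counts do not say which reads crossed a junction, so the entries are described as circRNA-annotated signals.

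Only 27 of the 200 members (13.5%) could be placed on exon ends of their host gene in GRCm38 with GENCODE M21, against 10328 of 16432 circRNA entries (62.9%). For these the junction can be read from the genome. The 6 junctions of the hosts Ubr3, Itpr2 and Fras1 are shown because in each pair the entries have different junctions but nearly the same counts. In each line 15 bases at the donor end stand in lower case and 15 bases at the acceptor start stand in capitals.
mmu_circ_0010135 (Ubr3): ggacaaggaggaaagATGAAGAGAACAGTT
mmu_circ_0010133 (Ubr3): cagatacacagcattGTTTTGTAGAAGACA
mmu_circ_0013175 (Itpr2): gctcagatgatcacgGCACACTCTCCCCGA
mmu_circ_0013176 (Itpr2): cctgcttcatctgtgGCACACTCTCCCCGA
mmu_circ_0001365 (Fras1): ctgttttgtaaccagGATGCTACAATTTGG
mmu_circ_0012882 (Fras1): ctgttttgtaaccagGGAGAAGTGCTGTGG

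Both Itpr2 entries start at exon 49 of ENSMUST00000053273 (GRCm38 chr6:146180180-146180355, minus strand). Itpr2 encodes a receptor that releases calcium when it binds inositol trisphosphate. The entries, of 1088 and 927 spliced bases, had 44714 and 44687 counts over the 28 libraries and differed by at most 5 in any library. In Fras1, a protein of basement membranes, the entries share the donor at exon 6 of ENSMUST00000036019 (chr5:96544950-96545083, plus strand). They start at exon 3 and exon 4, and their counts were 36529 and 36521, with a difference of at most 2 in a library.

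Ubr3, an E3 ubiquitin ligase, gave the clearest case. The entries mmu_circ_0010135 (exons 9 to 23 of 39, GRCm38 chr2:69944300-69973609, plus strand) and mmu_circ_0010133 (exons 2 to 19 of 39 of another transcript, chr2:69914414-69959663) share neither end, and 1196 exonic bases lie in both. Their counts summed to 1246768 and 1245279, so the second held 99.9% of the first. Of 11 Ubr3 entries with exon ends these 2 stood at 5658 and 5651 RPM, and the other 9 were at or below 8.00 RPM. Only 698 exonic bases, between chr2:69951343 and 69956106, lie in both high entries and in no low one. A like core was found in Itpr2, where 927 bases lie in both high entries and in none of 3 low ones (1.31 RPM or less), in Fras1 with 387 bases and 2 low entries (0.690 RPM or less), and in Tnrc6b, a GW182 protein of miRNA silencing, with 324 bases of its 1 high entry and 7 low ones (1.02 RPM or less). High and low were set from these same levels, so the cores are a description, and entries at levels between were in neither group. In Itpr2, Fras1, Pclo, Foxp1 and Nav2 the core was all of the sequence common to the high entries, so nothing was narrowed as in Ubr3. Of 12 hosts with both high and low entries, 9 had such a core. The other 3, in which no base met this condition, were Hdac9, a class IIa histone deacetylase, Ptk2, a focal adhesion kinase, and Spire1, an actin nucleation factor.

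Members of the same host shared their signal in general. The 131 named hosts included 26 with more than 1 member, which held 66 members, and 29 members had no host in their name. Across 62 pairs of members of 1 host the median Pearson correlation of log2(RPM + 1) over the 28 libraries was 0.999, and 50 pairs lay above 0.99. The other 19838 pairs had a median of 0.301. Such correlations share libraries, depth and, within a host, sequence. The 6 members of Gm16869 had correlations from 0.998, and so had the 4 members of the complement gene C4b. Of the 12 pairs at or below 0.99, those below 0.9 fell in 6 hosts: Ssbp2, a single-stranded DNA binding protein (0.243), U6 (0.371), 6230409E13Rik (from 0.386), 2610528E23Rik (0.707), C230091D08Rik (from 0.878) and Hivep2 (from 0.896). mmu_circ_0000146, listed under Hivep2, and mmu_circ_0002087, listed under Gm8330, had identical counts in all 28 libraries, and their starts lie 3 bases apart. When overlapping members on 1 strand with a correlation above 0.99 were counted once, the 200 members were 163 signals. Members that do not overlap were not merged, so these signals can still share a profile.

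Where 1 annotated circle lay inside another on the same strand, the larger one was rarely lower. The host was not always the same. For example, mmu_circ_0012620 of Gm1043 lay inside mmu_circ_0012621 of Crmp1, and some pairs had no host in their names. Among 51 such pairs of members, 49 (96.1%) had a larger circle with at least as many counts as the smaller in all 28 libraries. Over all 11408 such circRNA pairs this held for 90.6%. Zfp536, a zinc finger transcription repressor, showed how little the size could add. Its member mmu_circ_0014161 spans 1569 bases and held 98.8% of the counts of mmu_circ_0014162, which spans 90711 bases.

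Long annotated spans made up most of the members. The median span was 59569.5 bases in the members and 5932 in all circRNA entries, and 118 members (59%) reached 50000 bases, against 6.69% of all entries. Among entries of 50000 bases or more, those placed on exon ends had a median level of 1.47 RPM (809 entries) and those not placed 123 RPM (290 entries). From 5000 to under 50000 bases the medians were 1.04 and 13.1 RPM. Below 500 bases the contrast was gone, with 0.242 and 0.233 RPM. As a description over entries, which share reads, Spearman's rho of span with summed counts was 0.781 over the 6104 entries not placed on exon ends. In the 10328 placed entries it was 0.374 for span and 0.722 for spliced length.

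**Figure D1:**
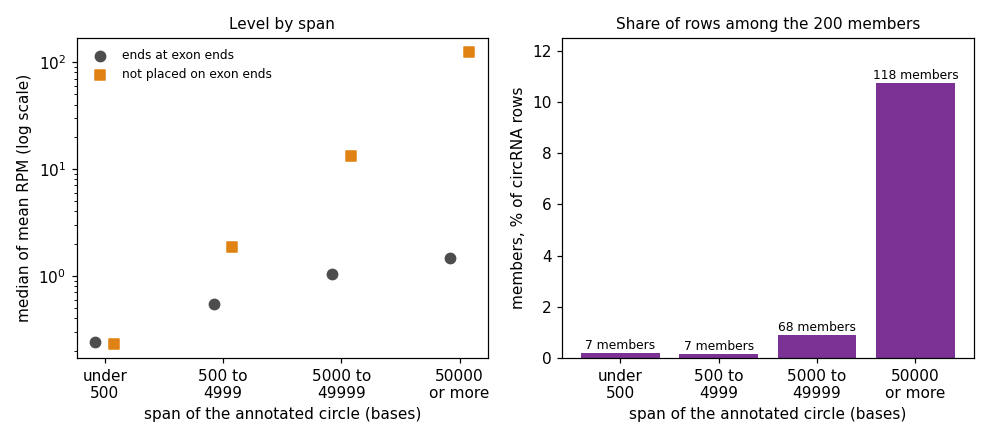
Left, the median of mean RPM (log scale) of circRNA entries by annotated span in bases, for entries whose ends match exon ends (circles) and entries that were not placed (squares). Right, the percentage of entries of each span that are among the 200 members. At 50000 bases or more the medians are 1.47 and 123 RPM, and 118 members fall in this group.

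Read per length, the order of the members changed. Levels per 1000 bases, with spliced length for the 27 placed members and span for the other 173, ran from 2.02 to 43589 RPM with a median of 4.43. The highest were the short entries without a host mmu_circ_0000336 (79 bases), mmu_circ_0000791 (178 bases) and mmu_circ_0000078 (186 bases), and then Afg3l2 (766 spliced bases). Only 7 members spanned fewer than 500 bases. A member such as mmu_circ_0000380, second in RPM, had 174 RPM per 1000 bases of its 32820-base span. Of the members with a host found in GENCODE M21, 85.6% lay on protein-coding genes, against 98.0% of all matched circRNA entries.

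All 200 members were detected in every library, with a lowest count of 9. The median of their mean levels was 254 RPM, against 0.854 RPM for all circRNA entries, and 16 reached 1000 RPM. The coefficient of variation (CV) over the 28 libraries was under 0.5 in 123 members and over 1 in 15. The member with the lowest CV (0.12) was mmu_circ_0004868 of Ssbp2, which stayed between 179 and 247 RPM in plasma and between 152 and 202 RPM in EVs.

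The highest member was mmu_circ_0007463 of Afg3l2, a subunit of the m-AAA protease of the inner mitochondrial membrane. Its level was 373, 1493 and 4363 RPM in plasma (lowest, median and highest of 14 libraries) and 1899, 9568 and 24224 RPM in EVs. The ranges overlapped, but it was higher in EVs in all 14 mice. Next came mmu_circ_0000380, with no host (chr12:55797806-55830625, plus strand, in the coordinates of the entry name), at 2306, 4037 and 9939 RPM in plasma and 2655, 4798 and 16230 RPM in EVs. The entry mmu_circ_0010135 of Ubr3 had 724, 3053 and 7188 RPM in plasma and 3076, 7182 and 14068 RPM in EVs, and its 2 companions followed it. Coordinates in entry names carry no build and were not used as GRCm38 positions. Members were placed in GRCm38 by exon spans of the host instead, and the GRCm38 positions given above come from that placement.

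Among the short entries, mmu_circ_0000791 (chr17:39983531-39983708, plus strand) stood at 1249, 1905 and 8751 RPM in plasma and 1888, 2977 and 14974 RPM in EVs. The entry mmu_circ_0000336 (chr11:108873269-108873347, minus strand) had 648, 1914 and 6363 RPM in plasma and 843, 3646 and 7321 RPM in EVs. For mmu_circ_0000078 (chr1:133470424-133470609, plus strand) the values were 409, 1106 and 2469 RPM in plasma and 848, 2749 and 5159 RPM in EVs. None of the 3 has a host, and in each the fractions overlapped. Of the last members among the highest 10, Samsn1, a signalling adaptor of blood cells, had 206, 636 and 1796 RPM in plasma and 553, 2763 and 5686 RPM in EVs. Dhtkd1, a subunit of the mitochondrial 2-oxoadipate dehydrogenase, had 63.2, 801 and 4033 RPM in plasma and 78.5, 1804 and 6669 RPM in EVs.

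**Figure D2:**
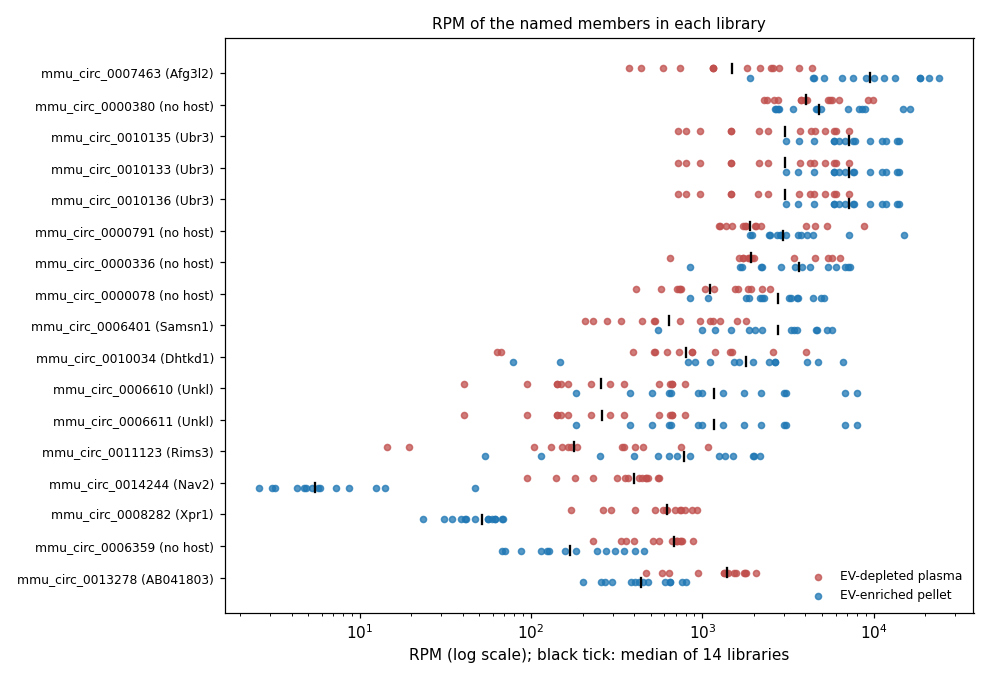
RPM (log scale) of the 10 highest members and of the members with the largest changes between fractions that went the same way in every mouse, with 1 point per library and a black tick at the median of 14 libraries. Afg3l2 lies at 373 to 4363 RPM in plasma and 1899 to 24224 RPM in EVs, and the fractions are apart without overlap only for Nav2 and Xpr1.

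The first comparison asked which members differed between EVs and plasma. Of the 200 members 63 (31.5%) were higher in EVs, where 10% of 22323 RNAs tested and 7.56% of the circRNAs tested were called in that direction. A further 12 members (6%) were higher in plasma, against 7.08% of all RNAs and 6.84% of circRNAs. Calls are edgeR quasi-likelihood tests with trimmed mean of M values (TMM) scaling and Benjamini-Hochberg adjusted p under 0.05. The fit had age as a covariate and did not pair the fractions of a mouse. With the mouse as a replicate block 77 members were higher in EVs and 17 in plasma, against 11% and 7.54% of all RNAs. All 200 members passed the filter on low values. Of the 163 signals left after merging overlapping members, a count added after the data were seen, 46 were called up in EVs and 12 up in plasma. The median log2 fold change of the members was 0.27, beside -0.02 for all RNAs. A stricter filter at 5 RPM called 68 members higher in EVs and 20 in plasma, against 18.5% and 13.4% of 8369 RNAs. The members were chosen by mean level over both fractions and have more counts than most RNAs. The part of this in the number of calls and in the median fold change was not tested. In such fluids fewer particles and less RNA per particle cannot be told apart.

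The direction of this split depended on the scaling. With the deposited RPM scaling the members split into 24 higher in EVs and 42 higher in plasma, against 4.52% and 19.5% of all RNAs, and the median of all RNAs moved to -0.45. The median log2 fold change of the members turned from 0.27 to -0.23 with the RPM scaling and -0.27 with total counts, and members with a positive fold change fell from 135 to 66 and 56 of 200. Relative to the median of all RNAs the members stood higher by 0.29 with TMM, 0.22 with the RPM scaling and 0.23 with total counts on the log2 scale. The members were chosen by a mean that includes the EV libraries, so high EV levels could bring an entry into the set. These differences are therefore a description. Under TMM and RPM scaling 24 members were called higher in EVs both times and 12 higher in plasma both times, and none was called in opposite directions. Ribosomal RNA (rRNA) took 39.4% ± 11.8 of counts in EVs and 11.04% ± 4.19 in plasma (SD, n = 14), and transfer RNA (tRNA) 32.1% ± 12.0 and 61.5% ± 11.1, and the part of this composition in the members' differences was not tested.

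Among members higher in EVs, 17 were so in all 14 mice on the TMM scale, and the median fold of the 63 was 1.93. Afg3l2 had the largest change, a log2 fold change of 3.42 (SE 0.51, edgeR adjusted p = 1.59e-05). The 2 entries of Unkl, a zinc finger protein related to unkempt, followed with 3.25 (SE 0.62, edgeR adjusted p = 0.000345 for mmu_circ_0006610). Their level was 40.4, 258 and 795 RPM in plasma and 182, 1165 and 8016 RPM in EVs, higher in EVs in all 14 mice with overlapping ranges. Samsn1 rose by 2.66 (SE 0.48, edgeR adjusted p = 0.000158) and Rims3, a presynaptic protein related to RIM, by 2.46 (SE 0.61, edgeR adjusted p = 0.00458). The Rims3 level was 14.5, 178 and 1086 RPM in plasma and 53.8, 779 and 2178 RPM in EVs. All 5 entries kept direction and call under the RPM and the total count scaling.

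The Ubr3 entries were higher in EVs as well, with log2 fold changes of 2.07 (SE 0.43, edgeR adjusted p = 0.000922 for mmu_circ_0010135), and mmu_circ_0000078 with 1.93 (SE 0.41, edgeR adjusted p = 0.00114). Dhtkd1 was called higher (1.88, SE 0.60, edgeR adjusted p = 0.0278), but not under the RPM or total count scaling (adjusted p = 0.109 and 0.175), nor without 2-month replicate 2 (0.0614), 18-month replicate 1 (0.0610) or 18-month replicate 2 (0.0533). Among the 10 highest members 3 were not called. The log2 fold change was 0.87 for mmu_circ_0000380 (adjusted p = 0.0572), 1.16 for mmu_circ_0000791 (0.0718) and 1.12 for mmu_circ_0000336 (0.0846), all from edgeR. With the mouse as a replicate block these were called (adjusted p = 0.000272, 0.00039 and 0.0154). The first 2 were also called without 2-month replicate 1 (0.0434 and 0.0428) or without 12-month replicate 2 (0.0399 and 0.0261).

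Under TMM scaling fewer members were higher in plasma than in EVs, and under the RPM scaling more were. Nav2 had the largest fold of all called members. This neuron navigator protein had 94.9, 399 and 556 RPM in plasma and 2.57, 5.51 and 47.3 RPM in EVs. The log2 fold change (EVs over plasma) was -4.93 (SE 0.34, edgeR adjusted p = 5.45e-12). Xpr1, a phosphate exporter, had 172, 619 and 928 RPM in plasma and 23.3, 51.6 and 68.4 RPM in EVs, a log2 fold change of -3.01 (SE 0.20, edgeR adjusted p = 1.68e-12). These 2 were the only members whose fractions did not overlap in RPM, as did 0.479% of all RNAs tested.

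Smaller differences went the same way in all 14 mice. The entry mmu_circ_0006359, without a host, changed by -1.07 (SE 0.19) and AB041803 by -0.97 (SE 0.18), with edgeR adjusted p = 0.000139 and 0.000246. AB041803 was at 467, 1393 and 2056 RPM in plasma and 202, 439 and 799 RPM in EVs. These 4 members kept direction and call under the RPM and total count scaling. The call for Cdh23, a cadherin of hair cell tip links named here after its values were seen and as the member with the highest CV, rested on 1 library. Its log2 fold change of -3.07 (edgeR adjusted p = 0.00456) became -0.04 (0.869) without 8-month replicate 1 and -0.27 (0.666) with the mouse as a block.

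**Figure D3:**
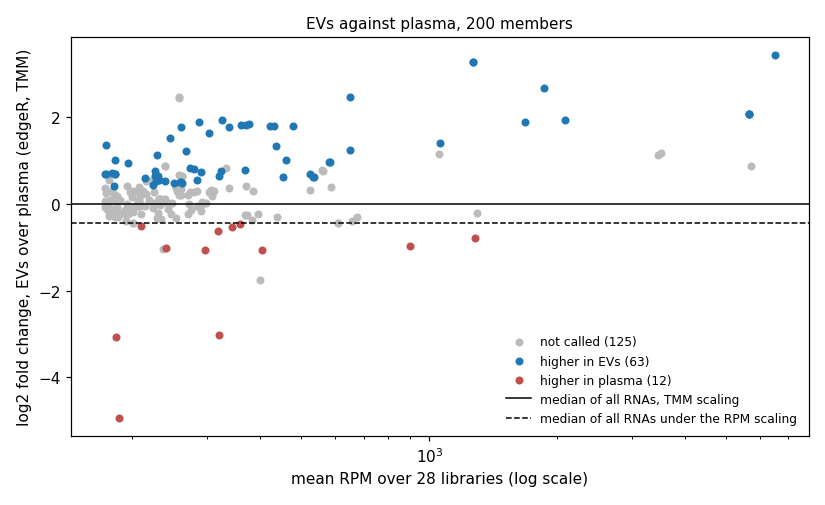
Log2 fold change of EVs over plasma (edgeR, TMM scaling) against mean RPM over 28 libraries (log scale), with 1 point per member. Blue points are the 63 members higher in EVs and red points the 12 higher in plasma. The solid line is the median of all RNAs (-0.02) and the dashed line the same median under the RPM scaling (-0.45).

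By structure, 13 of the 27 members placed on exon ends were higher in EVs and 4 higher in plasma, with a median log2 fold change of 0.53, beside 10% and 7.08% of all RNAs tested. Of the 166 other members of at least 500 bases, 46 were higher in EVs and 8 in plasma, with a median log2 fold change of 0.24. Among the 7 below 500 bases the counts were 4 and 0 (median 1.504). Of the 16 members above 1000 RPM, 10 were higher in EVs and 1, Gnaq, was higher in plasma (median 1.91). Gnaq, an alpha subunit of heterotrimeric G proteins, was named after its values were seen, at 618, 1933 and 3157 RPM in plasma and 390, 638 and 1483 RPM in EVs (log2 fold change -0.79, SE 0.24, edgeR adjusted p = 0.0184). Entries of 1 host that share counts, such as the 3 of Ubr3 and the 2 of Unkl, each count as a member here. These splits were made with the calls known and are given as counts only.

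The share of the whole class in all counts did not pass the test between fractions. All circRNA entries together took 11.8% ± 4.63 of counts in EVs and 12.2% ± 5.31 in plasma (SD, n = 14). The difference within mice was -0.329 points (SD 2.32, higher in EVs in 6 of 14 mice, exact sign-change test, two-sided, p = 0.604, Benjamini-Hochberg 0.671 over 10 classes). Among the other classes rRNA was higher in EVs and tRNA lower in all 14 mice (both exact p = 0.00012207, the smallest this test can give, Benjamini-Hochberg 0.00061). The direction of the circRNA difference depended on the denominator. Outside rRNA the share was 6.04 points higher in EVs (19.8% against 13.7%, higher in 13 of 14 mice, exact p = 0.000366). In denominators added after the data were seen, the difference was -13.5 points outside tRNA (17.6% against 31.1%, higher in EVs in 0 of 14 mice, exact p = 0.00012207) and -2.81 points outside both (40.2% against 43.0%, higher in 3 of 14 mice, exact p = 0.0388). Within the class the 200 members took more of the EV libraries, 60.2% ± 9.26 of circRNA counts (44.2% to 72.2%) against 47.4% ± 4.97 in plasma (40.5% to 56.4%). The 10 highest members alone took 30.5% and 14.2%, and Afg3l2 5.87% and 1.01%. These shares involve the levels that chose the members, so no test is given.

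The next comparisons asked whether levels changed with age. Mean circRNA shares in plasma at 2, 6, 8, 12 and 18 months were 8.73%, 16.2%, 15.9%, 8.50% and 7.18%, and in EVs 9.67%, 15.1%, 14.6%, 7.96% and 8.20%. The share was highest at 6 and 8 months in both fractions, but single libraries of neighbouring ages overlapped. This shape was not particular to circRNA. The mean share of long noncoding RNA was also highest at 6 and 8 months in both fractions. In EVs it was 4.49% and 4.26% there, against 2.01% at 12 months. Mean tRNA shares were lowest at these ages in both, with 63.4%, 55.7%, 49.7%, 72.6% and 77.2% over the 5 ages in plasma. Not every class had this shape, as mean miRNA in EVs was highest at 12 months (0.519%). The part of tRNA in the circRNA shares was not tested. The correlations below measure a steady rise or fall with age, so this higher circRNA share at middle ages was not tested. Spearman's rho of the plasma share with age was -0.256 (permutation p = 0.372), and that of the EV share was -0.272 (permutation p = 0.344), with Benjamini-Hochberg values of 0.61 over 20 tests of class and fraction. Pearson's r was -0.275 (permutation p = 0.340) and -0.289 (permutation p = 0.316), both with an adjusted value of 0.6255, and became 0.0753 and -0.0434 without the 2 mice farthest from the median age. In summed RPM rho in plasma was 0.0742, of the opposite sign (permutation p = 0.80). Within the class, summed RPM of the members had means of 90241, 91234, 94737, 78638 and 75909 over the 5 ages in plasma and 118776, 103364, 132081, 105914 and 115086 in EVs.

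**Figure D4:**
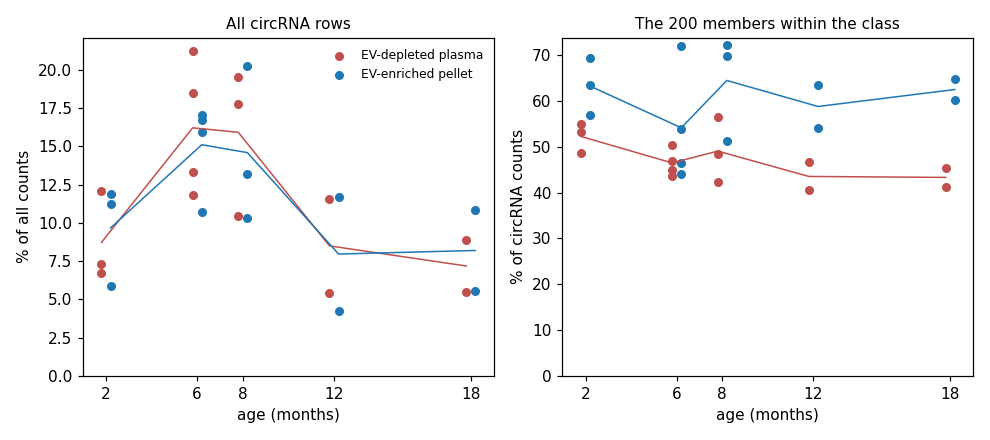
Left, percentage of all counts on circRNA entries, and right, percentage of circRNA counts on the 200 members, by age in months, with 1 point per library (red plasma, blue EVs) and lines through the means. In both fractions the class share peaks at 6 and 8 months, with means of 16.2% and 15.9% in plasma and 15.1% and 14.6% in EVs, and the members take a larger part of the class in EVs.

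No member changed with age at an adjusted p under 0.05 in the edgeR fit. In plasma 0 of 200 members were called, where 3 of 21632 RNAs (0.0139%) were, and 17 members (8.5%) had an unadjusted p under 0.05, against 7.29% of all RNAs. In EVs 0 members and 0 of 18570 RNAs (0%) were called, with 6 members (3%) at an unadjusted p under 0.05, against 5.79%. For the interaction of age and fraction, which tests whether the slope differed between EVs and plasma, 0 members and 0 of 22323 RNAs (0%) were called, with 5 members (2.5%) at an unadjusted p under 0.05, against 4%. DESeq2 called 2 members in each of the 3 tests, both Itpr2 entries in plasma and in the interaction, and mmu_circ_0004098 and mmu_circ_0016181 of Rragb in EVs. Of all RNAs DESeq2 called 0.19% in plasma, 0.0969% in EVs and 0.0224% for the interaction. With the mouse as a replicate block the interaction still called 0 members, but 23 (11.5%) had an unadjusted p under 0.05, against 6.11% of all RNAs. Only 2 mice each stood at 12 and 18 months.

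The smallest p in plasma belonged to the Itpr2 entries. Plasma levels of mmu_circ_0013176 were 1886 and 690 RPM in the 12-month mice and 580 and 5.21 RPM in the 18-month mice, and between 1.65 and 22.1 RPM in the 10 younger mice. In EVs it was at 1925 RPM in 2-month replicate 3 and at 1589 and 374 RPM in 6-month replicates 1 and 2, and between 1.24 and 18.6 RPM in the other 11 libraries. The high libraries thus came from older mice in plasma and from younger mice in EVs, and no mouse was high in both fractions. The slope per 10 months was 5.66 on the log2 scale in plasma (SE 1.39, edgeR adjusted p = 0.312) and -6.74 in EVs (SE 2.33, edgeR adjusted p = 0.686). The interaction was -12.3 (SE 2.84, edgeR adjusted p = 0.725). With DESeq2 the adjusted p was 0.00145 in plasma and 3.53e-07 for the interaction, and in plasma edgeR called both entries without the 18-month mice (adjusted p = 0.0315 for this entry) and with the 5 ages as groups (0.000792). In plasma the signal therefore lay in 3 of 14 libraries, and the call depended on the model.

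Basp1, a membrane-bound signalling protein of neurons and other cells, was next in plasma with a slope of -1.02 (SE 0.33, edgeR adjusted p = 0.62). Its plasma level was 1729, 871 and 1294 RPM in the 2-month mice and 409 and 496 RPM in the 18-month mice, but 6-month replicate 1 stood at 1435 RPM. In EVs Basp1 had a slope of -0.55 (SE 0.43, edgeR adjusted p = 0.985). Its EV levels at 18 months were 596 and 1265 RPM.

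In EVs the smallest p belonged to mmu_circ_0004098, listed under RP23-136M3.6, with a slope of 1.40 (SE 0.31, edgeR adjusted p = 0.415). Its EV level was 1207 RPM in 18-month replicate 2 and between 120 and 294 RPM in the other 13 libraries, and without that mouse the slope was 0.35. In plasma it was high at 6-month replicate 2 (1273 RPM) and 8-month replicate 3 (918 RPM). Spire1 had a slope of 0.60 (SE 0.20) and mmu_circ_0003931, without a host, 0.87 (SE 0.30), both with an edgeR adjusted p of 0.686. Spire1 had 269 and 184 RPM in the EVs of the 18-month mice and 159, 80.7 and 121 RPM in those of the 2-month mice, and the 211 RPM of 6-month replicate 4 lay between the 18-month values.

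For the interaction the next member was mmu_circ_0015569, listed under U6 (slope difference -1.999, SE 0.68, edgeR adjusted p = 1). It had 2295 RPM in plasma of 12-month replicate 1 and 1996 RPM in EVs of 2-month replicate 3. The other plasma libraries lay between 190 and 467 RPM and the other EV libraries between 122 and 372 RPM. These 2 libraries were also the highest of their fraction for Itpr2.

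High values in single libraries occurred in part of the members. A single high library raises the mean by which members were chosen. The same count over other RNAs is not given, so no trait of the members is read from it. In 21 of 200 at least 1 library exceeded 5 times the member's median over all 28, in 10 of them in 1 library only and in 6 in 2 libraries. Cdh23 had 3887 RPM in plasma of 8-month replicate 1, with 32972 counts, and between 41.4 and 73.7 RPM in the other plasma libraries and 21.5 and 69.9 RPM in EVs. The host-less mmu_circ_0010775 had 7474 RPM in plasma of 6-month replicate 3 and a median of 134 RPM. Others, chosen here for this pattern after their values were seen, were Uchl4 (2537 RPM in plasma of 2-month replicate 3, median 147), the tubulin gene Tubb2a (5343 RPM in plasma of 6-month replicate 4, median 397) and Cse1l, a nuclear export factor (2787 RPM in EVs of 8-month replicate 2, median 250). The 10 members with 1 such library had it in 9 different libraries.

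**Figure D5:**
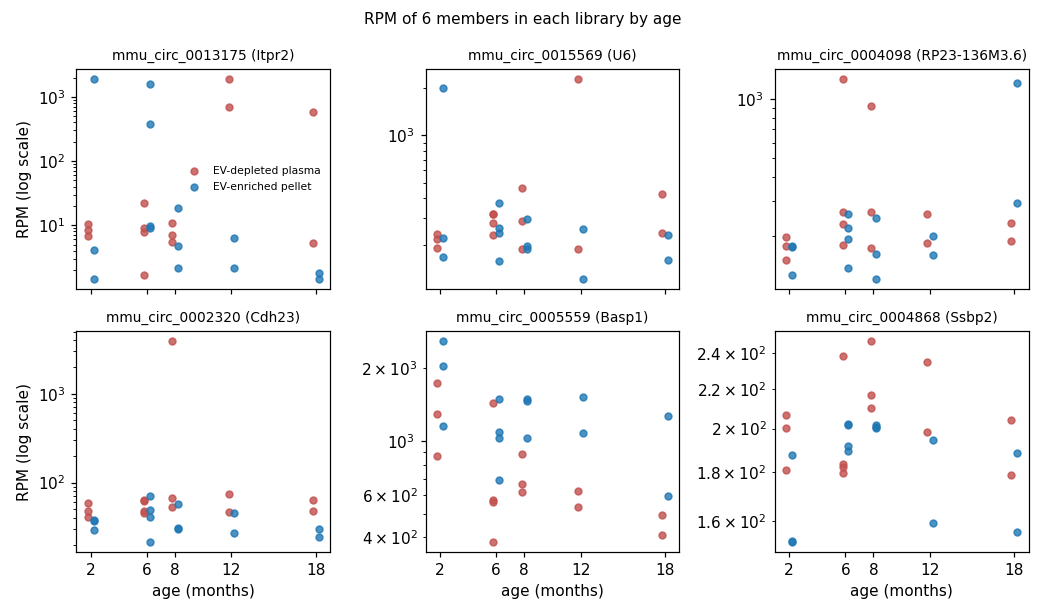
RPM (log scale) by age in months of 6 members, with 1 point per library (red plasma, blue EVs). Itpr2, U6, RP23-136M3.6 and Cdh23 each stand far above their usual level in 1 to 6 libraries, Basp1 is spread, and Ssbp2 stays between 152 and 247 RPM.

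Profiles over the 28 libraries were also set beside the 1180 RNAs of other classes with a mean of at least 20 RPM. The most alike RNA of another class had a Pearson correlation of log2(RPM + 1) above 0.95 for 45 members and above 0.99 for 2. Afg3l2 was most like the long noncoding RNA (lncRNA) Gm42864 (0.998, mean 3231 RPM), as was Samsn1 (0.986). The entry mmu_circ_0000380 was most like the small nuclear RNA Gm22068 (0.996, mean 1952 RPM). The most alike RNA was an lncRNA for 153 members and a piRNA for 28. The classes of the 1180 RNAs are not given beside this, so no likeness to 1 class is read from it. Each value is also the highest of 1180 correlations. These are descriptions over libraries that share depth and composition.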

How the data were processed

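Small RNA of both plasma fractions of 14 mice was analysed in 28 libraries, grouped by the labels. Estimated counts were deposited without normalization. The authors also deposited them as a signal named RPM, scaled by a single factor for each library. What this factor counts and the circRNA annotation were not given in the sources used here. The study's methods name miRMaster and Bowtie for its sequencing, but do not say whether this covers these libraries. The submitters' processing notes name mm10 and R 4.0.4. All columns belonged to a sample.

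Counts (345 values not whole in the table, 0 in circRNA entries) were rounded. RNAs with at least 1 RPM in at least 2 of 14 libraries of a fraction were tested with edgeR 4.0.16 (glmQLFit, glmQLFTest, TMM over all classes, R 4.3.3, limma 3.58.1), adjusted over all RNAs. EVs against plasma was fitted over 28 libraries with age as a covariate, age in each fraction alone. DESeq2 1.42.0 was the other tool. Class shares were tested by exact sign changes within mice, or by permutation with 100000 resamples. Correlations used a pseudocount of 1 RPM. Other steps ran in Python 3.11.15 (scipy 1.17.1, pandas 2.3.3, numpy 2.4.6, matplotlib 3.10.9). The tests were checked on simulated data. Of 100 RNAs changed 2-fold, edgeR recovered 31 between fractions. Of 100 changed 2-fold per 10 months it recovered 6 in plasma, 3 in EVs and 0 for the interaction. At 4-fold the numbers were 92, 57, 63 and 17.

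EVs and plasma pair because both come from 1 animal. Plasma labels of 2-month replicates 2 and 3 share a code, so these were paired by number. Deviations from age means correlated within mice between -0.0833 and 0.472 over 14655 RNAs, above 0.1 in 10 of 14 mice. With 2 mice at an age both must have the same value, 0.472 at 12 months and 0.177 at 18 months, so these do not count separately.

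Entry coordinates name no build. An entry was placed on exon ends of GRCm38 (GENCODE M21) where its span equals that of exons of its host gene and the offset equals that of another of the 10 nearest circRNAs on each side. Starts are written 1 above those in the entry names, which count from 0.

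Members and lists were chosen with earlier results of these data known. Exon placement, span classes, nested circles, exon cores, overlap groups, single high libraries, calls by structure and alike RNAs of other classes were added after the values were seen. Named members are the 10 highest, the 5 largest changes between fractions in each direction among calls the same way in every mouse, the 3 smallest p of each age test, the highest and lowest CV, the entries at the limit of the choice, and entries of 1 host with shared counts, of which 1 member and 1 junction sequence are not reported here. Alternatives were other scalings, filters, ways to choose members, a mouse block, DESeq2, and fits without 1 mouse each, without the 18-month mice or without libraries under 2000000 counts. Depth limits the shallowest plasma library, with 928651 counts, where a member's count was as low as 13.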

Additional observations from a re-analysis of the deposited data

Results flagged for a closer look

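Of 58 groups of 4 libraries, 8 had 1 library far from the others, and chance flags about 1 group in 20. The groups were 29 quantities, the named members and both shares of counts, at 6 months in each fraction. They are not independent, since some entries of 1 host share counts and all groups of a fraction share 4 libraries. Of the 8, 5 were high in the same library, plasma of 6-month replicate 1, which is also the shallowest. There mmu_circ_0000336 had 4544 RPM (others 1639 to 1890), mmu_circ_0000078 had 2468.6 RPM (409 to 741), the Unkl entries mmu_circ_0006610 and mmu_circ_0006611 each had 669.08 RPM (40.4 to 142), and Rims3 had 1086.2 RPM (14.5 to 185). The part of depth in these levels was not tested. In EVs of 6-month replicate 4 mmu_circ_0000380 had 16230 RPM (others 2705 to 4629). In plasma mmu_circ_0004098 of RP23-136M3.6 had 1272.8 RPM in 6-month replicate 2 (others 180 to 264), and mmu_circ_0004868 of Ssbp2 had 238.08 RPM in 6-month replicate 3 (others 180 to 184).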

How the results depend on the processing

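Leaving out each mouse in turn gave 68 to 81 members called between EVs and plasma (main 75), 58 to 68 higher in EVs and 9 to 13 higher in plasma, 0 called in each age test, a class share difference of -0.654 to -0.00299 points and rho with age of -0.428 to -0.0875 in plasma and -0.439 to -0.110 in EVs. Scaling by total counts called 33 members between fractions (11.2% of all RNAs), 20 of them higher in EVs (3%). The RPM scaling called 24 higher in EVs and 42 higher in plasma (4.52% and 19.5%). With no filter 45 were called (5.31%), 37 of them higher in EVs (3.01%). A filter at 5 RPM called 68 higher in EVs (18.5%) and 20 higher in plasma (13.4%). In plasma 2 members changed with age by DESeq2 (0.19% of all RNAs), 5 with no filter (0.858%), 2 without the 18-month mice (0.287%) and 4 with 5 ages as groups (1.3%). DESeq2 and no filter each gave 2 in EVs (0.0969% and 0.0702%) and 2 for the interaction (0.0224% and 0.0572%). The class share difference reversed in summed RPM (5713 higher in EVs, p = 0.204 by the exact test) and outside rRNA (6.04 points, exact p = 0.000366), passed the test outside tRNA (-13.5 points) and outside rRNA and tRNA (-2.81 points), both added after the data were seen, and the correlation with age in plasma reversed in summed RPM (rho 0.0742, p = 0.80). The cause of these changes was not tested. With the mouse as a replicate block 77 members were higher in EVs (11% of all RNAs) and 17 in plasma (7.54%), with 74 calls shared with the unblocked fit, and 0 were called for the interaction. Without the block the class share difference was -0.329 points (permutation p = 0.861). Of named members, leave-one-out ended the calls of Dhtkd1 and Cdh23 and made calls of mmu_circ_0000380 and mmu_circ_0000791.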
